A study of Homo sapiens with 9 samples.

Results

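Transcripts of 9 amino acid transporters were followed in MDA-MB-231 cells exposed to 2-deoxy-D-glucose (2-DG). The 9 genes were taken by name from the deposited gene lists: SLC7A11, SLC7A5, SLC3A2, SLC7A1, SLC1A4, SLC1A5, SLC38A1, SLC38A2 and SLC6A9, which together carry cystine, leucine, glutamine, serine, arginine and glycine. They are 9 of 61552 genes listed and 9 of 16570 genes kept for testing, so no member was lost to the filter on low values. MDA-MB-231 is an established human triple-negative breast cancer cell line, used here without genetic change. Cells were kept for 24 h without 2-DG (control, 0 mM, given phosphate-buffered saline) or with 2-DG at 10 mM or at 20 mM, and each of these 3 groups has 3 libraries. 2-DG is a glucose analogue that enters cells through glucose carriers and blocks early glycolysis. The labels do not say that the libraries of a group came from separate cultures, so every p-value measures the spread between these libraries only, which may be technical.

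Amino acids cross the plasma membrane through carrier proteins of several families. The heavy chain encoded by SLC3A2 (CD98hc, also called 4F2hc) binds a light chain, which does the transport, and carries it to the cell surface. With the light chain SLC7A11 (xCT) it forms a carrier that takes up cystine in exchange for glutamate and feeds glutathione synthesis. With the light chain SLC7A5 (LAT1) it forms a carrier that takes up leucine and other large neutral amino acids. SLC1A5 (ASCT2), SLC38A1 and SLC38A2 carry glutamine and other small neutral amino acids. When amino acids are scarce or the endoplasmic reticulum is stressed, kinases of the integrated stress response phosphorylate eIF2α, translation of the transcription factor ATF4 increases, and many carrier genes are known ATF4 targets. The comparison asks how the transcripts of these carriers stood when glycolysis was blocked at either dose.

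Values are FPKM, fragments or reads counted on a gene, divided by its length and by the depth of sequencing. Library totals lay between 30974968 and 40843638 reads, so 1 read on a gene of 1 kb was worth 0.0245 to 0.0323 FPKM, and replicate libraries correlated at r = 0.989 to 0.996 across genes, which are not independent replicates. Marker genes of the line were checked. VIM (243 to 313 FPKM) and CD44 (52.9 to 74.1 FPKM) were high in all libraries, and ESR1 (at most 0.0083 FPKM), PGR (at most 0.0204 FPKM) and CDH1 (at most 0.417 FPKM) were at or near 0, with CDH1 means of 0.365 in control, 0.0493 at 10 mM and 0.0686 at 20 mM. The other low markers were not near 0: ERBB2 lay between 5.53 and 9.11 FPKM and EPCAM between 2.61 and 4.51 FPKM. KRT8 was present at 80.5 to 153 FPKM, with group means of 141 in control, 91.3 at 10 mM and 84.3 at 20 mM. The leukocyte gene PTPRC and the liver gene ALB did not exceed 0.0327 and 0.0410 FPKM, the fibroblast gene COL1A1 lay between 0.891 and 1.33 FPKM, and the endothelial gene PECAM1 had group means of 1.72, 1.23 and 0.914 FPKM in control, 10 mM and 20 mM. The part of these differences in the transporter values was not tested.

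The libraries of the control and of the 10 mM group differed among themselves by gene length. In 10 mM library 1 the 2348 genes of 8 kb or more stood a median of 0.12 above their group mean on the log2(FPKM + 1) scale, and in 10 mM library 2 they stood 0.12 below it. Control library 1 was 0.09 below and control library 2 was 0.07 above, whereas the 3 libraries at 20 mM stayed within 0.03 of their mean. Among the members 4 differed most between these libraries. The ratio of 10 mM library 1 to library 2 was 1.70 for SLC7A11, 1.53 for SLC7A1, 1.5 for SLC38A1 and 1.43 for SLC38A2, of 9645, 7688, 10015 and 6509 bases. It was 1.10 for SLC1A4, of 6941 bases, 0.913 for SLC3A2, of 6392 bases, and 0.892 for SLC1A5, the shortest at 3332 bases. SLC38A1 and SLC38A2 in control library 1 were at 0.716 and 0.725 times the mean of the other control libraries. With the length trend removed in each library, a setting chosen after the data were seen, 9 of the 9 members were called higher at each dose, and without both control 1 and 10 mM library 1 there were 7 at 10 mM and 9 at 20 mM. The trend was taken against the mean of all 9 libraries, so its removal also altered length-dependent differences between the groups. The median log2 fold change of all genes moved from -0.01 to 0.02 at 10 mM and from -0.02 to 0.02 at 20 mM.

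**Figure D1:**
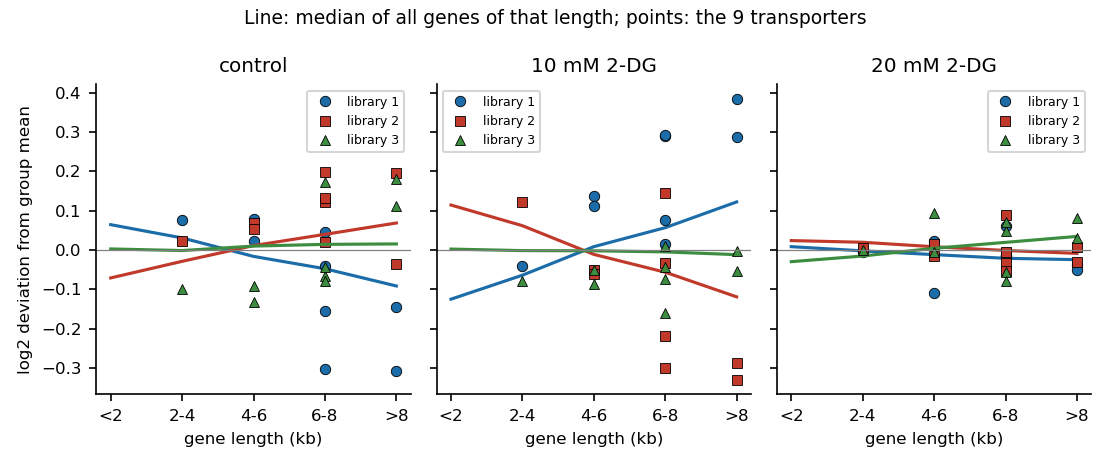
Deviation of each library from its group mean on the log2(FPKM + 1) scale (y axis) by gene length in kb (x axis), with lines for the median of all genes of that length and points for the 9 transporters. Libraries 1 and 2 diverge with length in the control and 10 mM groups, where genes over 8 kb stand at -0.09 and 0.07 and at 0.12 and -0.12, and the 20 mM libraries stay together.

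At both doses 8 of the 9 transporters rose and none fell. SLC3A2 rose to 3.41 times its control mean at 10 mM and 4.19 times at 20 mM, the largest of the 9 on the log2(FPKM + 1) scale at both doses, followed at 20 mM by SLC7A11, SLC1A5, SLC6A9 and SLC1A4. By the ratio of means SLC1A4, the least abundant, stood above SLC3A2 at 10 mM, at 3.58 times control. At 20 mM it stood between SLC3A2 and SLC7A11 by that measure, at 3.68 times control against 3.57 for SLC7A11. SLC38A1, SLC7A5 and SLC7A1 rose less, and SLC38A2, at log2 0.39 and 0.41, did not pass the test. Higher calls at a Benjamini-Hochberg adjusted p under 0.05 (limma over all genes tested) made up 12.1% of the genes at 10 mM and 15.4% at 20 mM, and lower calls 17.5% and 21.6%. The 9 had medians of 1.16 (10 mM) and 1.23 (20 mM) on the log2 scale, where all genes tested had -0.01 and -0.02. The 2 comparisons share the control libraries, and in bulk RNA a change in all cells and a change in part of the cells cannot be told apart.

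By a rule of an unadjusted p under 0.05 with a log2 fold change over 1, 5 of the 9 were higher at each dose: SLC7A11, SLC3A2, SLC1A4, SLC1A5 and SLC6A9. By that rule 0.579% of all genes tested were higher at 10 mM and 0.966% at 20 mM. Every library of the treated group stood above every control library for 7 members at 10 mM and for 9 at 20 mM, compared with 17.8% and 23.3% of all genes tested. The 2 members whose libraries overlapped with control at 10 mM were SLC7A1 and SLC38A2.

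**Figure D2:**
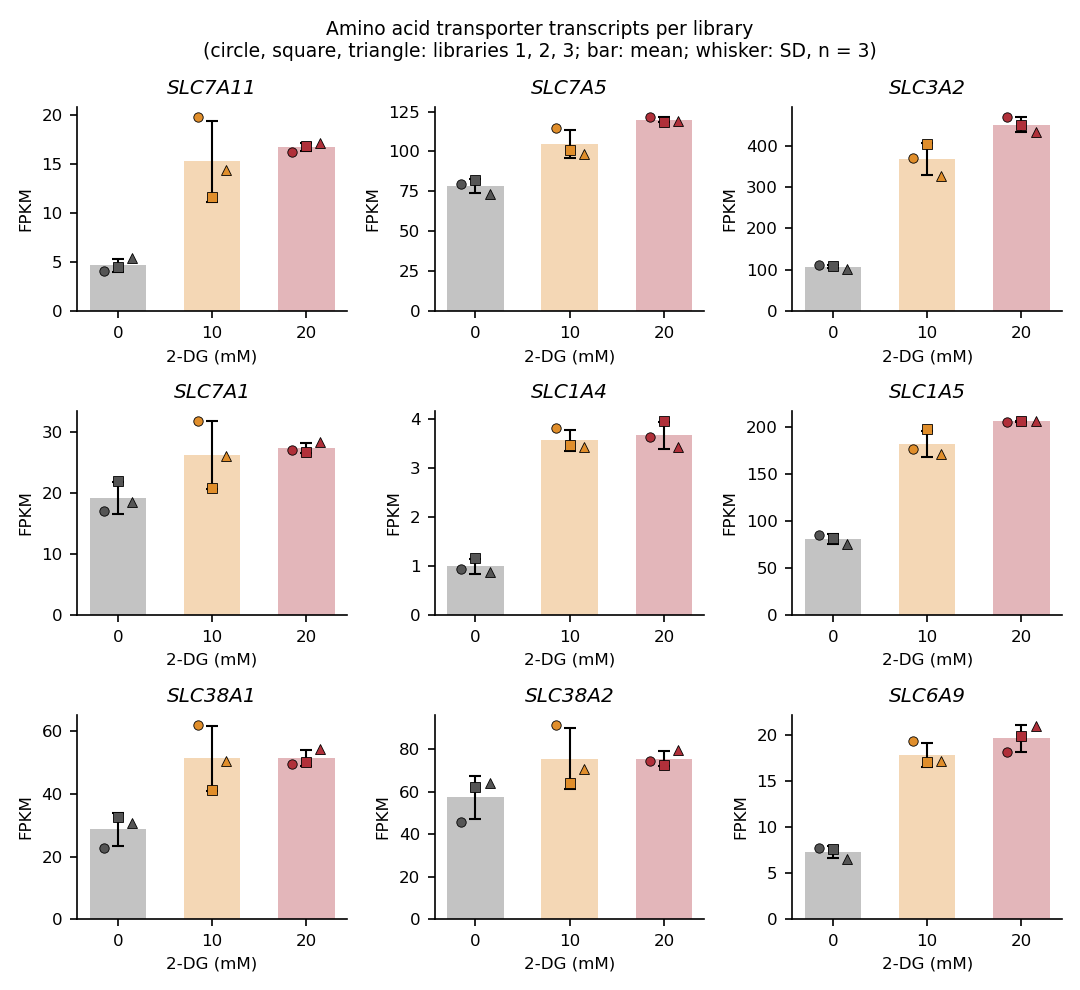
FPKM (y axis, from 0) of the 9 transporters against 2-DG dose in mM (x axis), with 1 point per library, bars for the mean and whiskers for the SD (n = 3). At 20 mM all treated libraries stand above all controls for each gene, and at 10 mM the controls overlap with SLC7A1 and SLC38A2 only.

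SLC3A2 is the shared heavy chain (ENSG00000168003, chr11:62856102-62888875, plus strand, GENCODE release 29 on GRCh38). Its control libraries had 111.2, 109.2 and 102.7 FPKM, the 10 mM libraries 369.7, 404.7 and 327.5, and the 20 mM libraries 470.0, 449.4 and 433.9. The 3 groups were fully separated, with the highest 10 mM library below the lowest 20 mM library. Group means were 107.7 ± 4.40, 367 ± 38.7 and 451 ± 18.1 FPKM (SD, n = 3). The log2 fold change was 1.76 (SE 0.083, limma adjusted p = 1.40e-06) at 10 mM and 2.06 (SE 0.083, adjusted p = 2.85e-07) at 20 mM, where it ranked 8 and 7 among the 16570 genes ordered from the largest rise.

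SLC7A11 is the cystine-carrying light chain xCT (ENSG00000151012, chr4:138164097-138242349, minus strand). It stood at 4.12, 4.53 and 5.41 FPKM in control, at 19.8, 11.7 and 14.3 at 10 mM, and at 16.3, 16.8 and 17.1 at 20 mM. Each treated library was at least 11.7 FPKM, above the highest control, but the 10 mM libraries spread widely and enclosed the 20 mM values. The mean rose from 4.69 ± 0.660 to 15.3 ± 4.15 and 16.7 ± 0.417 FPKM (SD, n = 3), a log2 fold change of 1.49 (SE 0.156, limma adjusted p = 0.00011) and 1.65 (SE 0.156, adjusted p = 3.86e-05). It is among the members that differed most between the 10 mM libraries.

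SLC7A5 is the light chain LAT1 (ENSG00000103257, chr16:87830023-87869488, minus strand). Its values were 79.5, 82.2 and 73.4 FPKM in control, 115.0, 100.8 and 98.2 at 10 mM and 121.8, 118.6 and 119.4 at 20 mM. The groups did not overlap, and the steps were small beside those of its heavy chain. It rose by log2 0.41 (SE 0.071, limma adjusted p = 0.00207) at 10 mM and 0.61 (SE 0.071, adjusted p = 0.000141) at 20 mM.

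The light chains were set against the heavy chain within each library, as a ratio of FPKM. SLC7A5 fell relative to SLC3A2: the ratio was 0.727 ± 0.0219 in control, 0.287 ± 0.0329 at 10 mM and 0.266 ± 0.00826 at 20 mM (SD, n = 3). The 6 treated libraries lay between 0.249 and 0.311, all below the control range of 0.714 to 0.753. Treated and control differed by -1.40 on the log2 scale (exact permutation test, two-sided, 6 libraries against 3, p = 0.0238, the smallest this design allows, adjusted over 3 ratios p = 0.0357). For SLC7A11 over SLC3A2 the ratio was 0.0437 ± 0.00805, 0.0421 ± 0.0125 and 0.0371 ± 0.00240, with overlapping libraries and a log2 difference of -0.15 (exact permutation p = 0.524).

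The sum of the light chains SLC7A5, SLC7A6, SLC7A7, SLC7A8, SLC7A10 and SLC7A11 over SLC3A2 was 0.796 ± 0.0273 in control, 0.336 ± 0.0467 at 10 mM and 0.309 ± 0.0114 at 20 mM. Its log2 difference was -1.31 (exact permutation p = 0.0238, adjusted p = 0.0357). SLC7A5 made up most of this sum, since SLC7A6 stayed at group means of 1.83, 1.76 and 1.72 FPKM and SLC7A7 at 0.787, 0.850 and 0.786. The size of a ratio depends on the gene lengths used, and SLC3A2 was scaled by 6392 bases where GENCODE release 29 gives 5178. That factor is common to all libraries, so it leaves the log2 differences as they are. With 1 control library left out the difference was -1.41 without control 1, -1.38 without control 2 and -1.41 without control 3 for SLC7A5, and p could not go below 0.0714.

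**Figure D3:**
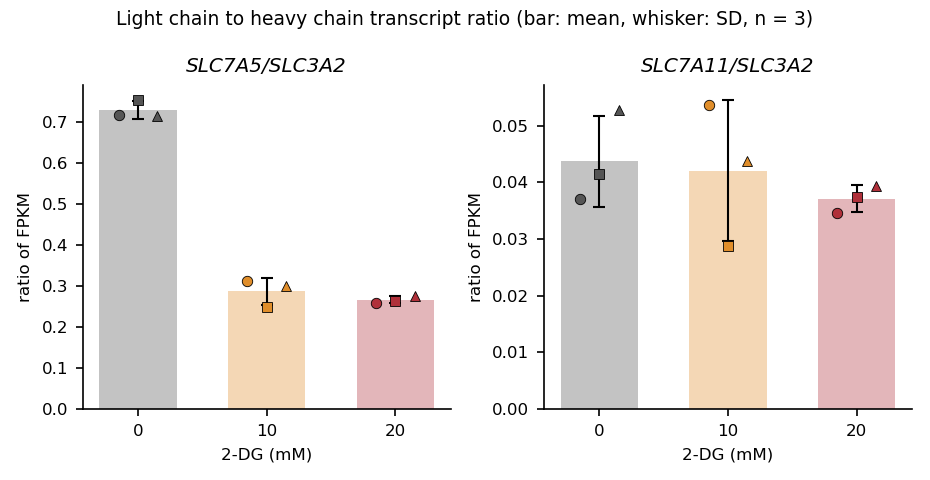
Ratio of light chain to heavy chain FPKM (y axis, from 0) against 2-DG dose in mM (x axis), for SLC7A5 on the left and SLC7A11 on the right, with 1 point per library, bars for the mean and whiskers for the SD (n = 3). The SLC7A5 ratio is 0.727 in control against 0.287 and 0.266 in treated cells, while the SLC7A11 ratios overlap between groups.

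SLC1A5, the sodium-dependent glutamine carrier ASCT2 (ENSG00000105281, chr19:46774883-46788594, minus strand), had 84.9, 81.7 and 75.0 FPKM in control, 176.1, 197.3 and 171.5 at 10 mM and 204.9, 206.2 and 205.7 at 20 mM. The 3 groups were separated and the 20 mM libraries were nearly equal. Its log2 fold change was 1.16 (SE 0.070, limma adjusted p = 4.24e-06) and 1.34 (SE 0.070, adjusted p = 9.18e-07), from a control mean of 80.6 ± 5.05 to 181.6 ± 13.8 and 205.6 ± 0.668 FPKM (SD, n = 3). Its relative SLC1A4 (ASCT1, a carrier of alanine, serine, cysteine and threonine, ENSG00000115902, chr2:64988477-65023865, plus strand) was the least abundant member, with 0.937, 1.17 and 0.886 FPKM in control, 3.81, 3.46 and 3.43 at 10 mM and 3.63, 3.97 and 3.42 at 20 mM. Treated libraries of both doses covered the same range, well above control. The log2 fold change on the FPKM + 1 scale, 1.20 at 10 mM (SE 0.092, limma adjusted p = 1.74e-05) and 1.23 at 20 mM (adjusted p = 8.44e-06), understates the change of so low a gene. The log2 ratio of the means was 1.84 and 1.88, and the control values rest on 231, 297 and 211 reads.

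SLC6A9, the sodium- and chloride-dependent glycine carrier GlyT1 (ENSG00000196517, chr1:43991500-44031467, minus strand), had 7.71, 7.56 and 6.54 FPKM in control, 19.3, 17.0 and 17.1 at 10 mM and 18.1, 19.8 and 21.0 at 20 mM. The treated groups overlapped each other and stood apart from control. The mean rose from 7.27 ± 0.640 to 17.8 ± 1.29 and 19.6 ± 1.46 FPKM (SD, n = 3), a log2 fold change of 1.19 (SE 0.083, limma adjusted p = 9.93e-06) and 1.32 (adjusted p = 2.91e-06).

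The sodium-coupled neutral amino acid carriers SLC38A1 (SNAT1, ENSG00000111371, chr12:46183063-46270017, minus strand) and SLC38A2 (SNAT2, ENSG00000134294, chr12:46358189-46372867, minus strand) are neighbours on chromosome 12. SLC38A1 had 22.7, 32.6 and 30.7 FPKM in control, 62.1, 41.4 and 50.6 at 10 mM and 49.6, 50.3 and 54.4 at 20 mM. Control 1 was the lowest control and 10 mM library 1 the highest treated library, and no treated library reached down to the controls. The log2 fold change was 0.82 (SE 0.154, limma adjusted p = 0.00348) and 0.84 (adjusted p = 0.00222), and without both control 1 and 10 mM library 1 it was 0.52 at 10 mM (adjusted p = 0.00758), a check chosen after the data were seen.

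SLC38A2 stood at 45.7, 62.2 and 64.0 FPKM in control, 91.5, 63.9 and 70.7 at 10 mM and 74.6, 72.7 and 79.4 at 20 mM. The lowest 10 mM library lay just under the highest control, and the 20 mM libraries lay above all controls. The log2 fold change was 0.39 (SE 0.146, 95% interval 0.06 to 0.72, limma adjusted p = 0.0726) at 10 mM and 0.41 (95% interval 0.08 to 0.74, adjusted p = 0.0524) at 20 mM, with an unadjusted p of 0.0243 and 0.0196. Both the processing and single libraries decided on which side of the threshold it fell. It passed in 6 of 20 alternative fits at 10 mM and in 12 of 20 at 20 mM. With median-ratio scaling factors the limma adjusted p was 0.0350 at 10 mM and 0.0201 at 20 mM, and with limma-voom it was 0.0319 and 0.0212. With a replicate block it was 0.119 and 0.0901. Without 10 mM library 2 the adjusted p at 10 mM was 0.0337, and at 20 mM it was 0.0474 without control 3, 0.0217 without 10 mM library 1 and 0.0368 without 10 mM library 2. Without control 1 the log2 fold change dropped to 0.24 and 0.26, and without 10 mM library 1 it was 0.24 at 10 mM.

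SLC7A1, the cationic amino acid carrier CAT1 that takes up arginine and lysine (ENSG00000139514, chr13:29509410-29595688, minus strand), had 17.0, 22.0 and 18.4 FPKM in control, 31.8, 20.8 and 26.0 at 10 mM and 27.0, 26.6 and 28.3 at 20 mM. At 10 mM library 2 was below the highest control, and at 20 mM no library was. The log2 fold change was 0.42 (SE 0.136, limma adjusted p = 0.0423) and 0.50 (SE 0.136, adjusted p = 0.0168), the weakest calls among the 8. The call at 10 mM was lost without control 1 (log2 fold change 0.34, adjusted p = 0.132), control 3 (0.40, adjusted p = 0.110), 10 mM library 1 (0.28, adjusted p = 0.110) or 10 mM library 3 (0.42, adjusted p = 0.0965), and without any 20 mM library, which takes part through the shared spread (adjusted p = 0.0591 to 0.0614). The call at 20 mM was lost without control 1 (adjusted p = 0.0607), control 3 (0.0536) or 20 mM library 3 (0.0538).

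**Figure D4:**
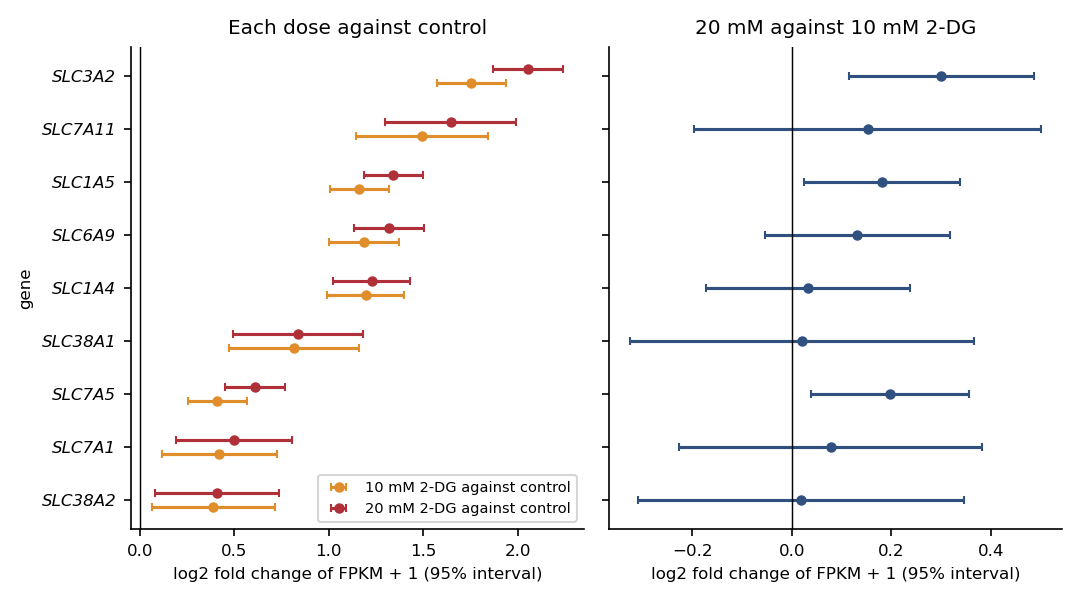
Log2 fold change of FPKM + 1 (x axis) with its 95% interval for each transporter (y axis), on the left for each dose against control and on the right for 20 mM against 10 mM 2-DG. On the left SLC3A2 stands at 1.76 and 2.06 and SLC38A2 at 0.39 and 0.41, and on the right the values lie between 0.02 and 0.30.

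Between the doses no transporter passed the test. All 9 log2 fold changes of 20 mM against 10 mM were above 0, from 0.02 for SLC38A2 to 0.30 for SLC3A2, with a median of 0.13 beside -0.01 for all genes tested. No gene at all had an adjusted p under 0.05 by limma (0% higher and 0% lower of 16570), and 1140 genes had an unadjusted p under 0.05. SLC3A2 (unadjusted p = 0.00481, 95% interval 0.12 to 0.49), SLC7A5 (0.0195, 0.04 to 0.36) and SLC1A5 (0.0278, 0.02 to 0.34) were the 3 members with an unadjusted p under 0.05. The same 3 were the members whose 20 mM libraries all stood above all 10 mM libraries. Over all genes tested, 2.75% were higher by the first measure and 4.71% by the second. The intervals of the other 6 reached from -0.33 to 0.50.

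The order of levels was the same in the 3 groups, on the FPKM scale that is per length: SLC3A2, SLC1A5, SLC7A5, SLC38A2, SLC38A1, SLC7A1, SLC6A9, SLC7A11 and SLC1A4. Neighbours in this order did not overlap, except SLC1A5 and SLC7A5 in control and SLC6A9 and SLC7A11 at 10 mM. The summed level of the 9 went from 384.7 ± 16.1 FPKM in control to 843.2 ± 57.0 at 10 mM and 970.9 ± 12.9 at 20 mM (SD, n = 3). SLC3A2 took 28.0% ± 1.49 of that sum in control, 43.5% ± 3.01 at 10 mM and 46.5% ± 1.31 at 20 mM. The share of SLC7A5 went from 20.4% to 12.4% and 12.3%, that of SLC38A2 from 14.9% to 8.93% and 7.78%, and that of SLC1A5 was 21.0%, 21.6% and 21.2%.

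Promoters of the members are shown because most members rose together. RefSeq start sites on GRCh38.p14 were at hand for 8 of the 9 genes, all but SLC7A11. They made 14 sites in all, each taken from 250 bases before to 50 after the start. The core of the CARE element, which ATF4 and its partners bind (TGATGNAA, searched on both strands), was in 5 of the 14 windows, against 3.62% of all 35116 promoters. These windows belong to 5 of the 8 genes, and the share per gene over all genes is not given here. The members were chosen with earlier results known, so these counts are a description only. The core of the antioxidant response element, which NRF2 binds (TGACNNNGC), was in 4 of the 14, against 13.3% of all promoters, and the E-box that MYC binds (CACGTG) in 2, against 7.26%. The 5 windows with a CARE core and that of SLC7A5 follow, 5′ to 3′ on the strand of the gene, with matches to any of the 3 motifs in capitals:
SLC3A2, chr11:62881449-62881748, plus strand: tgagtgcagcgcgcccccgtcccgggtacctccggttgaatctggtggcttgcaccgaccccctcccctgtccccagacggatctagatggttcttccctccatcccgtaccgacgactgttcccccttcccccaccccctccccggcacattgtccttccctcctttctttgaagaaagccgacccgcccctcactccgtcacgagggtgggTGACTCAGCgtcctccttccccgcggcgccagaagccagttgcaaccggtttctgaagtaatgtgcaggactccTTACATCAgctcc
SLC7A1, chr13:29595639-29595938, minus strand: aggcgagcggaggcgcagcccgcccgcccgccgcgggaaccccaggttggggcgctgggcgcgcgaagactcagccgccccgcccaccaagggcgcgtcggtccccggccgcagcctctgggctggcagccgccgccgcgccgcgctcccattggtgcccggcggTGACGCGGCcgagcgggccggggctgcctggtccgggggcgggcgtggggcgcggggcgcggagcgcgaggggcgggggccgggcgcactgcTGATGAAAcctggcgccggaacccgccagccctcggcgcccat
SLC1A4, chr2:64989149-64989448, plus strand: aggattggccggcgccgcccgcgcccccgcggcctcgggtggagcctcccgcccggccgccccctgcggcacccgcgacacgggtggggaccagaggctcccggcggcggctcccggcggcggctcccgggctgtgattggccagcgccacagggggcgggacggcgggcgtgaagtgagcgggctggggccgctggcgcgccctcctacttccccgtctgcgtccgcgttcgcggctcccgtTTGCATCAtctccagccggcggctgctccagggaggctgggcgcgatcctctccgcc
SLC38A1, chr12:46266467-46266766, minus strand: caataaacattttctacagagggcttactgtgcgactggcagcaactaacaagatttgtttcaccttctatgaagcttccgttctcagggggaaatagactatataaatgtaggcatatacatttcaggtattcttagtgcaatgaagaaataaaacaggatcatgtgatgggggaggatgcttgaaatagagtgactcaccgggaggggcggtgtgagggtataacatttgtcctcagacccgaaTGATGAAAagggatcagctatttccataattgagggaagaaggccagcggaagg
SLC1A5, chr19:46784765-46785064, minus strand: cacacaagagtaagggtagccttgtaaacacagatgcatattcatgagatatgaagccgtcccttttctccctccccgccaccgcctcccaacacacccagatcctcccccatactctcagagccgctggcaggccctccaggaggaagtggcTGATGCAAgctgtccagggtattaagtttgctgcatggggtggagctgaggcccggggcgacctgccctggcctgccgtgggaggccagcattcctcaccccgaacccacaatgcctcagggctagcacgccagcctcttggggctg
SLC7A5, chr16:87869458-87869757, minus strand: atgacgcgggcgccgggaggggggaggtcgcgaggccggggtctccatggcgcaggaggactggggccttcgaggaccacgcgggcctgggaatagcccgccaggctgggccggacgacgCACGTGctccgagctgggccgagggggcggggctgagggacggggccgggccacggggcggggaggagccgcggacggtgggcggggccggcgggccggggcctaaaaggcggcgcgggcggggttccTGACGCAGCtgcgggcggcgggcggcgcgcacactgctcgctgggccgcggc

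With the first transcribed base as position 1, the CARE core began at 38 in SLC3A2 (TTACATCA, on the opposite strand), at 8 in SLC7A1 (TGATGAAA), at -7 in SLC1A4 (TTGCATCA, opposite strand), at -4 in SLC38A1 (TGATGAAA) and at -97 in SLC1A5 (TGATGCAA). The antioxidant response core stood at -37 in SLC3A2, at -85 in SLC7A1 and at -2 in SLC7A5, which also had the E-box at -130. These windows are 1 of several in some genes. SLC3A2 has 3 start sites in the table, SLC1A4 2, SLC1A5 3 and SLC38A1 2, and 4 of the 5 windows with a CARE core, those of SLC3A2, SLC1A4, SLC38A1 and SLC1A5, lie inside the annotated gene. The window of SLC7A1 is at the annotated start of the gene. The windows of SLC38A2, the member that was not called, and of SLC6A9, which rose at both doses, held none of the 3 motifs. A match is a run of letters in the window and was not tested as a binding site.

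Exons of 4 members share bases with genes on the opposite strand, and the sources used here do not state whether counting used strand. SLC6A9 shares 404 bases with CCDC24 (mean 2.50 FPKM over the 9 libraries), SLC1A5 shares 780 with AC008622.2 (0.164 FPKM), SLC7A11 shares 865 with SLC7A11-AS1 (0.0271 FPKM) and SLC7A5 shares 271 with AC126696.2 (0.0524 FPKM). Reads from these stretches cannot be assigned to 1 of the 2 genes.

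For each member the gene most like it over the 9 libraries was found among 10823 genes with a mean of at least 1 FPKM, as the root mean square difference of log2(FPKM + 1) relative to control. TRIB3, a pseudokinase gene of the stress response, was nearest to SLC3A2 (difference 0.131). WARS1, a tryptophanyl-tRNA synthetase, was nearest to both SLC1A4 (0.0681) and SLC6A9 (0.0778), and SHMT2, the mitochondrial serine hydroxymethyltransferase, was nearest to SLC1A5 (0.0592). SEL1L, a subunit of the machinery that degrades proteins from the endoplasmic reticulum, was nearest to SLC7A11 (0.133). STK40 was nearest to SLC7A5 (0.0259), ZNF697 to SLC7A1 (0.0346), PALM2AKAP2 to SLC38A1 (0.0942) and MAP3K2 to SLC38A2 (0.0539). Among the members themselves the closest were SLC1A5 and SLC6A9 (0.0962), SLC1A4 and SLC6A9 (0.102) and SLC7A1 and SLC38A2 (0.114). The nearness of SLC1A4 to WARS1 and to SLC6A9 holds on the log2(FPKM + 1) scale, which lowers the change of SLC1A4. Its log2 ratio of means was 1.84 and 1.88, against log2 fold changes of 1.19 and 1.27 for WARS1 and 1.19 and 1.32 for SLC6A9. Small differences are easier to reach for genes that moved little, and the 9 libraries are shared by all these values.

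Other amino acid carriers of the plasma membrane were called about as often as genes in general. Of 31 listed, 16 were tested, and 2 were higher and 3 lower at 10 mM (12.1% and 17.5% of all genes tested) and 2 higher and 4 lower at 20 mM (15.4% and 21.6% of all genes), with a median log2 fold change of -0.04 at either dose. The taurine carrier SLC6A6 rose from 19.2 to 30.5 and 33.0 FPKM (log2 fold change 0.63 and 0.76, limma adjusted p = 0.00578 and 0.00157), and the large neutral amino acid carrier SLC43A1 from 4.59 to 7.45 and 7.96 FPKM (0.60 and 0.68, adjusted p = 0.000868 and 0.000279). The arginine carrier SLC7A2 fell from 3.42 to 1.52 and 1.36 FPKM (-0.81 and -0.89, adjusted p = 0.00145 and 0.00057). SLC38A4 fell at 20 mM only by this test (-0.44, adjusted p = 0.00557; -0.12 at 10 mM, adjusted p = 0.364), and the difference between the doses did not pass the test (adjusted p = 0.481).

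The list of lysosomal and endosomal amino acid carriers held 10 tested genes of 12. At each dose 5 rose and none fell (higher calls were 12.1% and 15.4% of all genes tested), and the median of the tested genes was 0.39 and 0.43 on the log2 scale. SLC36A1, which exports small neutral amino acids with protons, rose from 2.77 to 5.37 and 6.04 FPKM (log2 fold change 0.76 and 0.91, limma adjusted p = 0.00086 and 0.000201). The glutamine carrier SLC38A7 (0.77 and 0.85), the cystine exporter CTNS (0.73 and 0.85) and SLC38A10 (0.56 and 0.65) also rose. That SLC38A10 and the other listed proteins lie in lysosomes or endosomes was not checked here. SLC38A9, which signals lysosomal arginine to mTORC1, had 0.27 and 0.28 (adjusted p = 0.0641 and 0.0537).

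Of 32 genes through which amino acids are sensed by mTORC1, 8 were higher and 2 lower at each dose (12.1% and 17.5% of all genes tested at 10 mM, 15.4% and 21.6% at 20 mM), and the median log2 fold change was 0.04 and 0.05. SESN2, a leucine sensor that restrains mTORC1, rose most at 20 mM (0.91 and 1.28, limma adjusted p = 9.90e-05 and 7.30e-06), followed by the Rag GTPase gene RRAGC (0.85 and 0.84), FLCN, which acts on RRAGC (0.48 and 0.65), and the GATOR2 subunit gene SEC13 (0.31 and 0.48). The lower calls were RRAGA (-0.28 and -0.25) and TFEB (-0.27 and -0.28), named after their values were seen. They were fewer in most other settings, at 0 to 4 genes for 10 mM and 0 to 2 for 20 mM.

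Of 22 genes that handle cysteine and glutathione, the route that cystine from xCT enters, 21 were tested and CBS was listed at 0 in all libraries. At 10 mM 4 were higher and 4 lower (12.1% and 17.5% of all genes tested), at 20 mM 5 and 5 (15.4% and 21.6%), with a median of -0.10 and -0.09. CHAC1, which degrades glutathione, rose from 16.4 to 39.1 and 46.9 FPKM (log2 fold change 1.21 and 1.47, limma adjusted p = 8.33e-05 and 1.50e-05). CTH, which makes cysteine from cystathionine (1.21 and 1.26), and GCLC, the catalytic subunit of the first enzyme of glutathione synthesis (0.68 and 0.89), also rose. The glutathione peroxidase GPX1 fell from 448 to 317 and 301 FPKM (-0.51 and -0.57, adjusted p = 0.0138 and 0.00626).

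Of 18 genes of the integrated stress response, 11 were higher and 1 lower at 10 mM (12.1% and 17.5% of all genes tested) and 13 higher and 2 lower at 20 mM (15.4% and 21.6%), with a median log2 fold change of 0.41 and 0.58. The largest changes at 20 mM were those of TRIB3 (1.64 and 1.92, limma adjusted p = 2.65e-06 and 5.08e-07), DDIT3, which encodes the transcription factor CHOP (1.20 and 1.47), SESN2, which also stands in the mTORC1 list, and CEBPG, a partner of ATF4 (0.92 and 1.11). The lower call at both doses was EIF2AK4 (-0.36 and -0.43, limma adjusted p = 0.0373 and 0.0128). EIF2AK1 was called lower at 20 mM only (-0.06 and -0.22, adjusted p = 0.530 and 0.0321), and both are named after their values were seen. The ATF4 transcript itself rose from 145 to 227 and 228 FPKM (0.64 and 0.65, adjusted p = 0.00021 and 0.000135), and it is named here because a promoter motif refers to it. Transcripts of NRF2 and MYC, whose motifs were also searched, are not given here. ATF4 protein was not measured in these files. Between the doses no gene of any of these lists passed the test by limma.

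**Figure D5:**
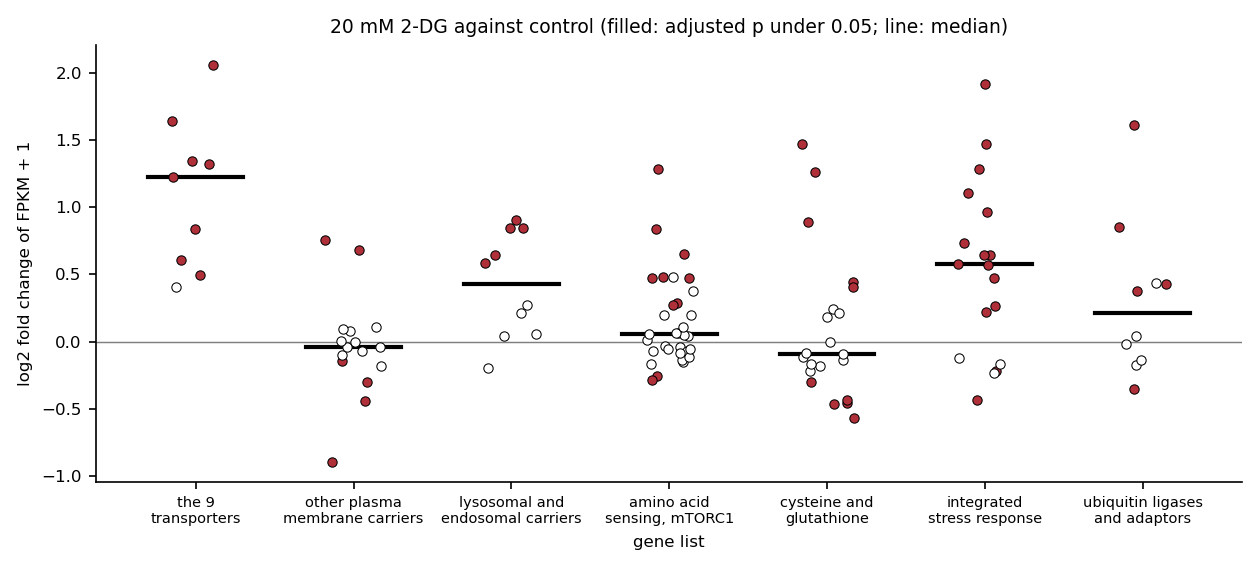
Log2 fold change of FPKM + 1 at 20 mM 2-DG against control (y axis) for the genes tested in each list (x axis), filled where the adjusted p was under 0.05 and with a line at the median. The 9 transporters have a median of 1.23, the lysosomal carriers 0.43, the integrated stress response 0.58 and the other plasma membrane carriers -0.04.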

How the data were processed

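RNA of MDA-MB-231 cells was measured by RNA-seq in 9 libraries, 3 per group, grouped by the treatment label. The authors extracted total RNA with a column kit, prepared mRNA libraries and deposited FPKM values, 1 file per library. The submitters' processing notes name GRCh38 (hg38). The aligner, the counter and the annotation release are not given in the sources used here. Depth was recovered from the values: for all 32806 genes above 0 the FPKM were whole multiples of 1 read (within 0.002 reads), and these reads made up 99.8% to 99.9% of the library totals. They are not the authors' counts. They served for the filter (10 or more reads, at the depth of the median library, in 3 or more libraries, and 15 or more in all, which left 16570 genes) and for limma-voom as an alternative.

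Tests used limma 3.58.1 in R 4.3.3 (lmFit, contrasts, eBayes with a trend) on log2(FPKM + 1), all 9 libraries in 1 fit without a replicate block, with Benjamini-Hochberg adjustment over all genes tested. Fold changes on this scale understate the change of low genes. Ratios were compared by exact permutation tests, two-sided (scipy 1.17.1). The rule of an unadjusted p with a log2 fold change over 1 is that of the study's methods, applied to this fit. Alternatives were the pseudocount, the filter, scaling factors, voom, the groups in the fit, a replicate block, thresholds, leaving out each library, and 2 settings added after the data were seen (length trend, and 2 libraries left out together).

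The members, the gene lists and the tests were chosen with earlier results of these data known, and the lists were written from general knowledge. All 9 members are named, from each list up to 4 genes with the largest absolute log2 fold change at 20 mM among those called there, and for each member the nearest gene. RRAGA, TFEB, SLC38A9, CBS, SLC7A6, SLC7A7, EIF2AK4, EIF2AK1 and ATF4 are named outside this rule, after their values were seen. Promoters are from RefSeq. Protein sequences and the identity between members were not used here. Lactate-treated cells of the study were not analysed here.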

Additional observations from a re-analysis of the deposited data

How the results depend on the processing

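Across the alternatives, 7 to 9 members were called higher at 10 mM and 7 to 9 at 20 mM, and leaving out 1 library gave 7 to 9 at each dose. The exception was the threshold of an unadjusted p under 0.05 with a log2 fold change over 1, which gave 5 at each dose, and a 1.5-fold threshold with the adjusted p gave 6 and 7. The calls of SLC7A11, SLC7A5, SLC3A2, SLC1A4, SLC1A5, SLC38A1 and SLC6A9 stood in all 20 alternative fits at both doses. SLC7A1 passed in 9 of 20 at 10 mM and 16 of 20 at 20 mM, and SLC38A2 in 6 and 12 of 20. With the replicate block, 7 members were called at 10 mM, SLC7A1 being lost (adjusted p = 0.0794), and 8 at 20 mM. Same-numbered libraries were not consistently alike (correlations of same-numbered deviations from -0.493 to 0.371, 3 of 9 over 0.1, and in 7 of 18 checks of a library against another group it was closest to its own number). Control 1 correlated at 0.62 with 10 mM library 2, and control 2 at 0.58 with 10 mM library 1. These are the libraries that differed by gene length, so the check cannot exclude a pairing. Of 20 mM against 10 mM, the sign of the log2 fold change turned without 10 mM library 2 for SLC7A11 (-0.013), SLC7A1 (-0.072), SLC38A1 (-0.12) and SLC38A2 (-0.090), without 10 mM library 3 for SLC38A2 (-0.018), without 20 mM library 2 for SLC1A4 (-0.013) and without 20 mM library 3 for SLC38A1 (-0.021) and SLC38A2 (-0.017), and the highest values with libraries left out were 0.35, 0.22, 0.071, 0.16 and 0.16 for SLC7A11, SLC7A1, SLC1A4, SLC38A1 and SLC38A2. Leaving out 1 library gave -1.44 to -1.37 for SLC7A5 over SLC3A2, -1.35 to -1.27 for the light chain sum and -0.27 to -0.013 for SLC7A11 over SLC3A2. Without a treated library the first and the second had an exact permutation p of 0.0357, not adjusted over the 3 ratios. Without a control 0.0714 is the smallest p the exact permutation test can give. No adjusted p is given for these runs, so whether they pass 0.05 after adjustment is not shown. List counts stayed within 1.5 times in 653 of 720 cases. These cases include all counts of 20 mM against 10 mM and the lower counts of lysosomal carriers, which were 0 in every fit. The lower counts moved most, at 0 to 4 (10 mM) and 0 to 2 (20 mM) for mTORC1 sensing, 1 to 4 and 3 to 5 for cysteine and glutathione, 0 to 1 and 1 to 3 for the stress response, and 2 to 4 at 20 mM for other plasma membrane carriers. Higher calls of the ubiquitin list ranged from 1 to 5 at 10 mM. The other scalings moved the median of all genes by less than 0.1 on the log2 scale.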

Other observations

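Ubiquitin ligases, adaptors and related genes reported to act on amino acid carriers were also followed, 10 of 10 tested. At 10 mM 3 were higher and 1 lower (12.1% and 17.5% of all genes tested), and at 20 mM 4 were higher and 1 lower (15.4% and 21.6%), with a median log2 fold change of 0.15 and 0.21. ARRDC4, an arrestin-domain adaptor known to respond to glucose-sensing transcription factors, went from 0.305 FPKM in control to 2.14 at 10 mM and 2.99 at 20 mM (log2 fold change 1.27 and 1.62, limma adjusted p = 1.75e-05 and 2.27e-06). Its relatives ARRDC2 (0.32 and 0.43, adjusted p = 0.0232 and 0.00479) and ARRDC3 (0.26 and 0.38, adjusted p = 0.112 and 0.0262) showed smaller values. EGFR, the receptor tyrosine kinase gene, rose from 14.0 to 24.8 and 26.0 FPKM (0.74 and 0.86, adjusted p = 0.0248 and 0.0103). NEDD4L, a ligase that acts on several membrane carriers, had values of 0.01 and -0.01 (adjusted p = 0.933 and 0.909). The only lower call was BAP1, a deubiquitinase gene (-0.34 and -0.35, adjusted p = 0.00107 and 0.000708). NEDD4L and BAP1 are named here after their values were seen.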
